A study of Mus musculus with 8 samples.

Results

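The genes described here make, take up, move and export cholesterol, or regulate these steps. They are 34 genes listed by symbol, each read from its brightest probe set on average. Probe sets carried the symbols of 30 of the 34, out of 19505 genes in all, and every measured gene had a single probe set. Acat2, Tm7sf2, Soat1 and Nr1h2 were not analysed here. The list does not hold every enzyme of the pathway.

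The values come from 8 Affymetrix arrays of luminal cells, the inner epithelial layer of the mouse mammary gland, sorted by flow cytometry from glands of mice pregnant for 15 days. The cells of 4 arrays are labelled a3a6KO, a name that refers to the integrin chains alpha 3 and alpha 6, encoded by Itga3 and Itga6. The cells of the other 4 are labelled control, and the series design calls all 8 biological replicates. The sources used here do not give the alleles, the Cre driver, the strain or the age of the mice, and the titles of the a3a6KO samples also carry the word Ctrl.

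Cholesterol is built from acetyl-CoA. The mevalonate arm makes farnesyl diphosphate, which also serves protein prenylation, and the sterol arm joins these units to squalene, closes the rings and trims them to cholesterol. When sterols run low in the endoplasmic reticulum, the transcription factor SREBP2, the product of Srebf2, is cut free and switches on most of these enzymes, while the INSIG proteins hold it back. When sterols are plentiful, the liver X receptors switch on exporters such as ABCA1 and ABCG1. Secretory mammary cells use cholesterol for their membranes and for the membrane that wraps milk fat globules.

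Values are log2 signals after RMA, and every difference is the a3a6KO mean minus the control mean on that scale. Background was set on each array from its probe sets for introns, and a value counted as above background where it was higher than 95% of these, a limit of 6.38 to 6.9. Between 2244 and 3229 genes did so on an array. Itga6 stood at 5.95, 3.65, 8.21 and 7.85 in a3a6KO 1 to 4, against 8.83, 8.73, 9.14 and 8.80 in control 1 to 4. Every a3a6KO array lay below every control, by the least in a3a6KO 3 and 4. Itga3 was at 5.15 ± 0.58 in a3a6KO and 6.42 ± 0.80 in control (SD, n = 4 each), and exceeded background on 1 of the 8 arrays. All 9 measured luminal markers exceeded background on every array. The 11 basal cell markers had lower means in a3a6KO in 11 of 11, and 2 were above background on all 8 arrays. Their mean level, centred on each gene's own mean, ran between -1.01 and 0.81 over the a3a6KO arrays and between -0.28 and 1.44 over the control arrays. The 6 milk genes exceeded background on all 8 arrays and had lower means in a3a6KO in 6 of 6, with a median difference of -0.29, and 0 of them were called. Of the 7 leukocyte markers, Ptprc exceeded background on 1 array, control 3 (7.07), and the other 6 on none. Of the 7 adipocyte markers, Fabp4 did so on all 8 arrays (8.94 to 11.25 in a3a6KO and 9.27 to 11.42 in control), and the other 6 on none. Bulk arrays cannot tell fewer cells of a type from less RNA per cell.

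None of the cholesterol genes differed between a3a6KO and control past the threshold, an adjusted p of 0.05. In the limma fit over all genes, adjusted p-values of the 30 genes ran from 0.631 to 0.998, and 0 of 19505 genes were called (0%), while 1000 genes had an unadjusted p under 0.05. Means were lower in a3a6KO in 19 of the 30 genes and higher in 11. The median difference was -0.18, beside -0.0025 over all genes. It was -0.07 without a3a6KO 2, -0.0317 without control 2 and -0.0326 with the basal marker level as a covariate. Over the 5 genes above background on at least 4 arrays it was -0.0525, and over the 2 synthesis genes among them, Fdps and Sc5d, it was 0.10. At an unadjusted p under 0.05, 4 of the 30 were lower, Hmgcs1, Lss, Msmo1 and Abcg4, where 2.73% of all genes were. At the same level 1 was higher, Hsd17b7, where 2.4% of all genes were. The count of 4 was 1 without a3a6KO 1, and 2 without a3a6KO 2, control 1, control 2 or control 3. Without a3a6KO 3 it stayed at 4, but with Lrp1 and Srebf2 in place of Hmgcs1 and Lss. With the basal covariate the lower genes were Lss, Cyp51 and Abcg4, and with a block on replicate number Abcg4 alone. The count of 1 was 0 without a3a6KO 1, a3a6KO 2, control 1, control 3 or control 4. The values of the groups did not overlap in 1 of the 30, Abcg4, which was lower, and in 0 with a higher level, where 1.56% and 1.38% of all genes did so. Of the 30 genes, 18 exceeded background on no array, 9 on some arrays and 3 on all 8, namely Sc5d, Npc2 and Mbtps1. Most differences were therefore taken from signals no brighter than the upper intron sets.

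**Figure D1:**
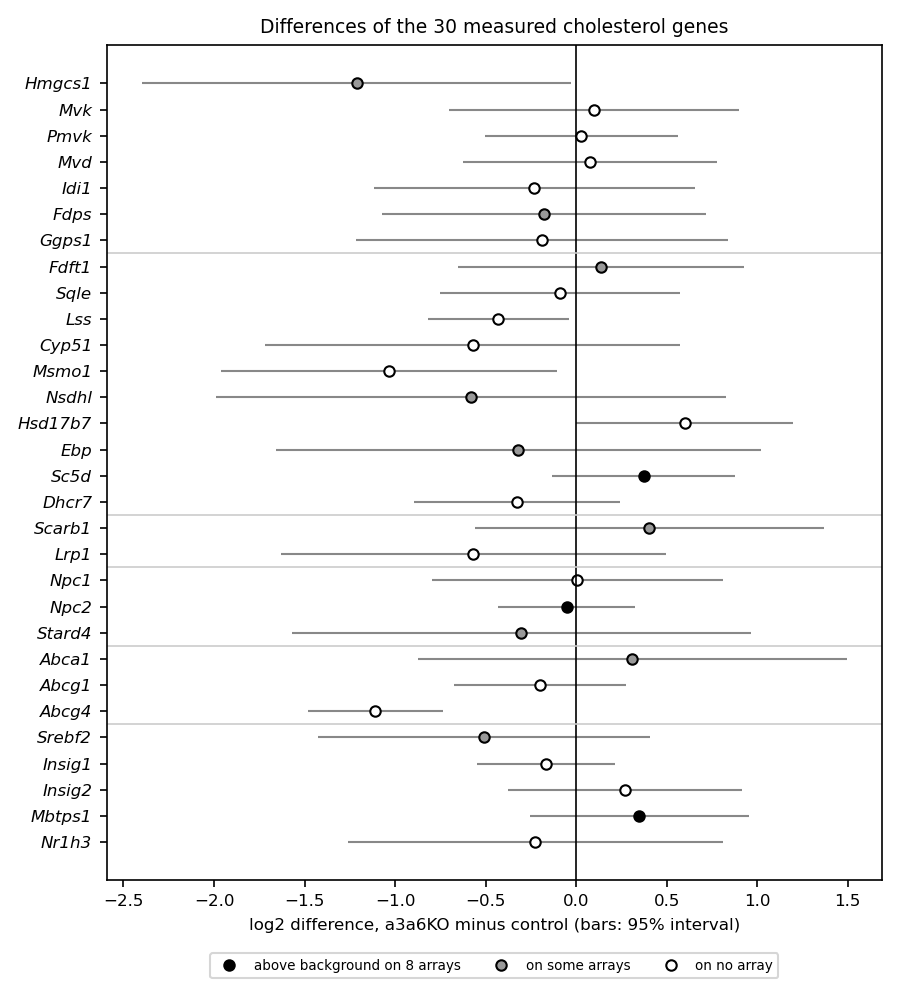
The horizontal axis is the log2 difference of a3a6KO minus control and each row is a gene, ordered by step with lines between the steps; points are fitted differences, bars are 95% intervals of the limma fit (4 arrays a group), and the fill of a point gives how many arrays exceeded background. The intervals of 25 genes span 0, and those of Hmgcs1, Lss, Msmo1 and Abcg4 lie below it and that of Hsd17b7 just above.

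The promoters of 4 enzyme genes are shown. Hmgcs1, Lss and Msmo1 had an unadjusted p under 0.05, and Idi1 shared a pattern over arrays with other enzymes. The choice is partial, since Hsd17b7, also under that p but higher in a3a6KO, is not shown. Nor are Fdps, Fdft1 and Sqle, which shared the pattern of Idi1. Each run holds the 250 bases before the gene's start on its own strand, from RefSeq, build GRCm38.p6. Hmgcs1 lies at chr13:119690101-119690350 (+), Idi1 at chr13:8885356-8885605 (+), Lss at chr10:76531355-76531604 (+) and Msmo1 at chr8:64733579-64733828 (-). Capitals mark TCACNCCAC, a form of the sterol regulatory element that SREBP proteins bind, and CCAAT, the box bound by NF-Y, a partner of SREBP, which reads ATTGG where it lies on the other strand. Both were searched on both strands, and no marked matches overlapped.
Hmgcs1: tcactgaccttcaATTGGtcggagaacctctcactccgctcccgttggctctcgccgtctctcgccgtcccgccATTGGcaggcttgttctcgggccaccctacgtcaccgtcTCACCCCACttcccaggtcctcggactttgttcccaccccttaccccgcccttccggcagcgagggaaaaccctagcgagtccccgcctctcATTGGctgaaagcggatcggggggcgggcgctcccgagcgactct
Idi1: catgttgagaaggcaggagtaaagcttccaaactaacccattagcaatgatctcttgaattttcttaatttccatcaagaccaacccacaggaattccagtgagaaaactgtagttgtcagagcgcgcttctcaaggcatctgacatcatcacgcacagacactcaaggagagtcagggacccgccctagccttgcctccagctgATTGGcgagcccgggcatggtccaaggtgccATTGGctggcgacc
Lss: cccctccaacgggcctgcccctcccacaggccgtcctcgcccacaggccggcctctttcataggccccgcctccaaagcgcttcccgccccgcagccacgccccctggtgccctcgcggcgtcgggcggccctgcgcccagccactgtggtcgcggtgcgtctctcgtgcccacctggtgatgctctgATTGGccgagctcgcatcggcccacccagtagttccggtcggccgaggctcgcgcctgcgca
Msmo1: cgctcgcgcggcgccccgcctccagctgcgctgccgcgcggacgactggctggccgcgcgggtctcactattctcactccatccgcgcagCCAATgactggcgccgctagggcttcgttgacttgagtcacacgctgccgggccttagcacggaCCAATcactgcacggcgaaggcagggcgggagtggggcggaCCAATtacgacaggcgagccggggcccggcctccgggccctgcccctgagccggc

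The window of Hmgcs1 held 1 match to TCACNCCAC and 3 to CCAAT, and those of Msmo1, Idi1 and Lss held 3, 2 and 1 CCAAT matches and 0 of TCACNCCAC. TCACNCCAC was found in 1.05% of all 32851 promoter windows of this length and in 1 of the 32 windows of the listed genes, that of Hmgcs1. CCAAT was found in 33.8% of them and in 20 of the 32 windows (62.5%) that the table gives for 26 of the 34 genes. Hsd17b7 was among the genes with a CCAAT match, and Fdps, Fdft1 and Sqle were not. Since windows were given for only 26 of the 34 genes, this can mean a window without a match or no window. The promoters shown cannot be taken to stand for all the enzymes. A match is a run of letters and does not show a bound site.

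In the mevalonate arm, 4 of 7 genes had lower means in a3a6KO and 3 higher, with a median difference of -0.18. Hmgcs1, the synthase that makes HMG-CoA, had the largest difference of means in the arm. Its values were 4.10, 4.84, 5.16 and 6.70 in a3a6KO 1 to 4, against 6.56, 7.23, 6.11 and 5.75 in control 1 to 4. Of the a3a6KO arrays 3 lay below all controls, while a3a6KO 4 lay above 3 of them. The mean was 5.2 ± 1.09 in a3a6KO and 6.41 ± 0.64 in control (SD, n = 4 each), a difference of -1.21 (SE 0.526, limma adjusted p = 0.944, exact permutation p = 0.143). When single arrays were left out, the difference ran from -1.71 without a3a6KO 4 to -0.85 without a3a6KO 1. It was -1.94 without a3a6KO 3 and 4, and -0.73 without control 1 and 2, fits that were added after the values were seen. Hmgcs1 exceeded background on a3a6KO 4 and control 2.

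The other mevalonate genes differed by less than 1 standard error of the fit. Mvk, mevalonate kinase, differed by 0.10 (SE 0.356), Pmvk, phosphomevalonate kinase, by 0.03 (SE 0.237) and Mvd, the decarboxylase that follows, by 0.07 (SE 0.312). Mvd was at 5.48, 5.41, 6.58 and 5.42 in a3a6KO 1 to 4, so a3a6KO 3 stood above the rest of its group, and control values ran between 5.08 and 6.03. These 3 genes exceeded background on no array. Fdps, which joins the isoprene units to farnesyl diphosphate, exceeded it on all but control 1. Fdps was at 7.54, 6.93, 6.64 and 6.64 in a3a6KO, against 6.07, 7.90, 7.65 and 6.84 in control, a difference of -0.18 (SE 0.398). The control arrays held both the lowest and the highest of its 8 values. Ggps1, which makes the longer prenyl donor, differed by -0.19 (SE 0.456).

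Idi1, the isomerase that supplies the starter unit for Fdps, showed its spread in the controls. Its values were 4.85, 4.74, 4.67 and 4.86 in a3a6KO 1 to 4, against 3.93, 6.16, 5.07 and 4.88 in control 1 to 4. The a3a6KO arrays lay close together between the extremes of control 1 and control 2. The SD was 0.09 in a3a6KO and 0.91 in control, and the means differed by -0.23 (SE 0.393). Idi1 exceeded background on no array.

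The sterol arm had lower means in a3a6KO in 7 of 10 genes and higher means in 3, with a median difference of -0.32. Lss, the cyclase that closes the sterol rings, was at 4.62, 4.67, 4.79 and 4.91 in a3a6KO, against 5.32, 5.05, 5.43 and 4.91 in control. The highest a3a6KO array equalled the lowest control, control 4. The difference was -0.43 (SE 0.173, 95% interval -0.82 to -0.04, limma adjusted p = 0.944, exact permutation p = 0.0571), and the gene exceeded background on no array.

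Msmo1 encodes the oxidase that removes methyl groups from the rings. Its values were 3.79, 3.13, 4.21 and 3.74 in a3a6KO 1 to 4, against 3.71, 5.59, 4.40 and 5.31 in control 1 to 4. Control 2 and control 4 stood apart, and control 1 lay within the a3a6KO values. The difference was -1.03 (SE 0.412, limma adjusted p = 0.944, exact permutation p = 0.114), below background throughout. Control 2 and control 4 also had the highest mean level of the basal markers, 1.01 and 1.44 above the genes' own means. With the basal marker level as a covariate, the difference of Msmo1 was -0.43, and that of Hmgcs1 -1.17. The mean basal level was lower in a3a6KO (mean difference -0.95 over the markers), although the arrays of the groups overlapped. This mean level was not tested between the groups. Such a fit cannot separate the basal level from the genotype, and the part of that level in the result was not tested otherwise.

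Hsd17b7, the ketoreductase that works with Nsdhl and Msmo1 in removing the methyl groups, had a higher mean in a3a6KO. It was at 5.42, 6.05, 5.19 and 5.18 in a3a6KO, against 4.39, 5.32, 5.02 and 4.71 in control. Control 2 lay above a3a6KO 3 and 4, so the groups overlapped. The difference was 0.60 (SE 0.266, limma adjusted p = 0.944, exact permutation p = 0.0857), and no array exceeded background.

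Sc5d, the desaturase near the end of the pathway, was the only enzyme of either arm above background on all 8 arrays. Its values were 7.13, 7.90, 7.28 and 7.85 in a3a6KO 1 to 4, against 7.0, 7.32, 6.96 and 7.39 in control 1 to 4. The mean was higher in a3a6KO by 0.37 (SE 0.225, 95% interval -0.13 to 0.88), and the ranges overlapped. Fdft1, squalene synthase, was at 6.74, 6.20, 6.86 and 6.42 in a3a6KO, against 5.44, 7.20, 6.73 and 6.30 in control, a difference of 0.14 (SE 0.351). As for Idi1, its lowest and highest values were control 1 and control 2.

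The remaining sterol enzymes had lower means in a3a6KO that did not exceed their replicate spread. Sqle, squalene epoxidase and a rate-limiting enzyme of the pathway, differed by -0.09 (SE 0.295), Dhcr7, the reductase of the last step, by -0.33 (SE 0.253), and Ebp, the isomerase before Sc5d, by -0.32 (SE 0.595). Ebp stood at 7.22 in control 3, against 4.48 to 4.87 in the other controls and 4.29 to 5.93 in a3a6KO. Cyp51, which removes the first methyl group, was at 3.83, 5.87, 3.66 and 4.81 in a3a6KO, against 5.54, 5.44, 5.36 and 4.11 in control, a difference of -0.57 (SE 0.509). The a3a6KO values of Cyp51 straddled the controls, and the difference was -1.01 without a3a6KO 2, -0.28 without a3a6KO 3 and -1.16 with the basal covariate (limma adjusted p = 0.854). Nsdhl, the dehydrogenase that acts with Hsd17b7, had values of 4.30, 6.67, 6.02 and 4.90 in a3a6KO, against 4.90, 7.19, 5.40 and 6.72 in control, a difference of -0.58 (SE 0.625). That of Nsdhl was -0.98 without a3a6KO 2, -0.19 without a3a6KO 1 and 0.12 with the basal covariate.

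**Figure D2:**
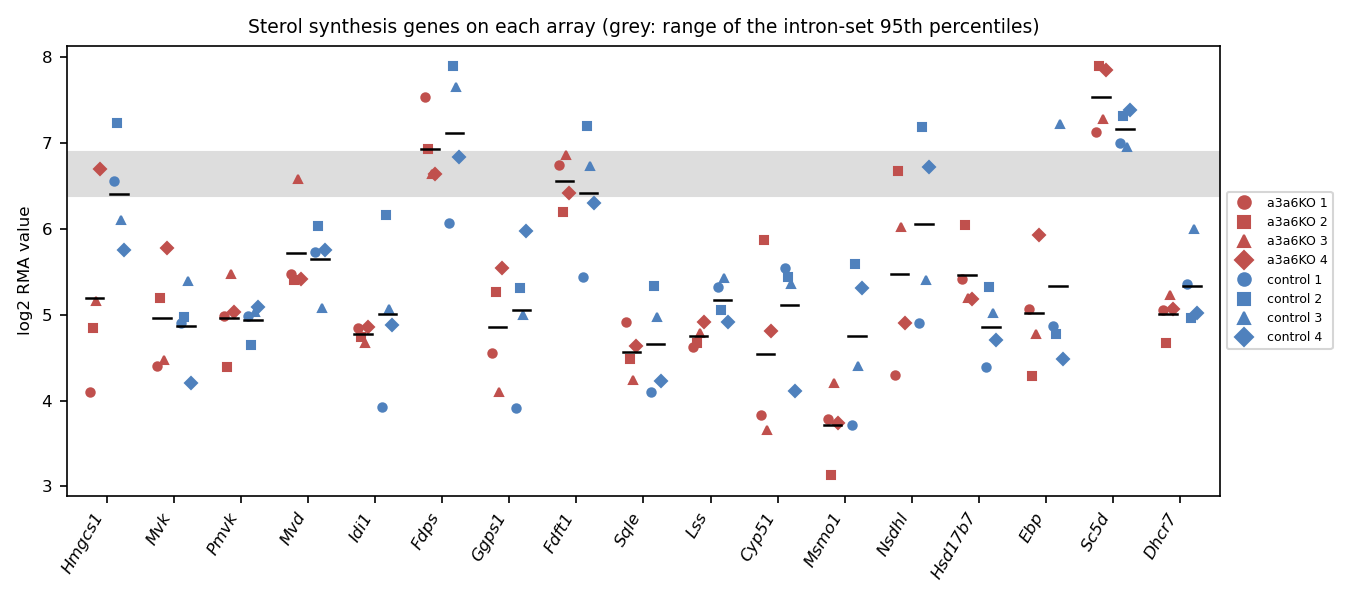
The vertical axis is the log2 RMA value of each of the 17 measured synthesis genes, with 4 a3a6KO arrays (red, left) and 4 control arrays (blue, right) per gene, black bars at the group means and a marker shape for the replicate number. The grey band is the range of the intron-set 95th percentiles, 6.38 to 6.9, and all values of Sc5d lie above it while most other genes lie below.

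Several enzymes moved together over the control arrays, a pattern noticed after the values were seen. Control 2 held the highest of the 8 values in 7 of the 17 synthesis genes, Hmgcs1, Idi1, Fdps, Fdft1, Sqle, Msmo1 and Nsdhl, against 10.8% of all genes. Control 1 held the lowest value in 6 of the 17, against 11.6% of all genes. In 4 genes, Idi1, Fdps, Fdft1 and Sqle, control 1 was lowest and control 2 highest, as in 278 of the 19505 genes (1.43%). Sqle, for example, was at 4.91, 4.48, 4.24 and 4.64 in a3a6KO, against 4.10, 5.33, 4.97 and 4.23 in control. Idi1, Sqle and Msmo1 exceeded background on no array, Hmgcs1 on 2, Fdft1 and Nsdhl on 3 and Fdps on 7. The mean centred level over the 17 genes was -0.31, -0.08, -0.16 and 0.08 in a3a6KO 1 to 4, against -0.31, 0.50, 0.28 and -0.02 in control 1 to 4. Control 2 and 3 thus lay above all a3a6KO arrays, and control 1 was level with the lowest of them. The median difference of the 17 genes was -0.19, which was -0.07 without control 2 and -0.38 without control 1. Control 1 had the fewest genes above background of all arrays, 2244. The mean basal marker level was 1.01 in control 2 and -0.28 in both control 1 and control 3. The part of basal cells in this pattern was not tested.

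**Figure D3:**
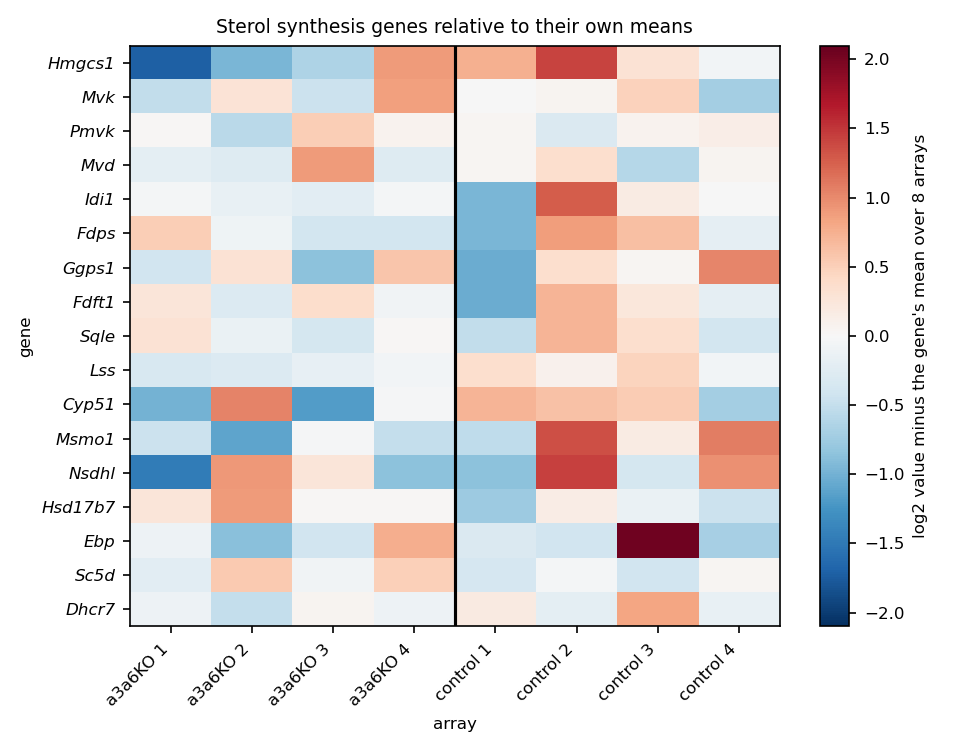
Rows are the 17 measured synthesis genes and columns the 8 arrays, a3a6KO left of the black line and control right; colour gives the log2 difference from the mean of the row. Control 2 lies above that mean in 13 of the 17 rows, and control 1 holds the lowest value of the row in Idi1, Fdps, Ggps1, Fdft1, Sqle and Hsd17b7.

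Genes of uptake and of movement within the cell overlapped between the groups. Scarb1 encodes the receptor that takes cholesterol esters from HDL. It was at 5.90, 6.63, 6.81 and 6.48 in a3a6KO, against 6.18, 4.87, 6.01 and 7.14 in control, a difference of 0.40 (SE 0.428) that was 0.01 without control 2. Lrp1, an endocytic receptor for lipoprotein remnants, was at 4.79, 3.94, 6.37 and 4.2 in a3a6KO, against 5.54, 5.26, 5.06 and 5.71 in control. Of the a3a6KO arrays 3 lay below all controls and a3a6KO 3 lay above them, for a difference of -0.57 (SE 0.472) that was -1.08 without a3a6KO 3. The mean centred level of 7 endothelial markers was 1.12 in a3a6KO 3, between -0.89 and -0.07 in the other a3a6KO arrays, and between -0.61 and 1.57 in control, and 2 of the 7 exceeded background on no array. That of 6 measured fibroblast markers was 0.70 in a3a6KO 3, between -0.28 and -0.11 in the other a3a6KO arrays, and between -0.33 and 0.44 in control, and 5 of the 6 exceeded background on no array. The part of such cells in the Lrp1 values was not tested.

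Npc2, the lysosomal protein that hands cholesterol to NPC1, was above background on all 8 arrays and among the steadiest of the genes. Its values were 7.97, 7.81, 8.14 and 8.09 in a3a6KO, against 7.77, 8.23, 8.07 and 8.15 in control. The difference was -0.05 with a 95% interval of -0.43 to 0.32. Npc1, its membrane partner, differed by 0.01 (SE 0.357), below background on every array. Stard4, a carrier of cholesterol in the cytosol and a known SREBP2 target, was at 4.84, 5.51, 4.54 and 6.57 in a3a6KO, against 7.13, 4.80, 5.55 and 5.19 in control. Single arrays, a3a6KO 4 and control 1, stood high in each group, and the difference was -0.30 (SE 0.563).

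Among the exporters, Abcg4 had the smallest p-value of the 30 genes. Abcg4 is a transporter of the ABCG family, close to Abcg1, that moves sterols to HDL and is best known from the brain. Its values were 4.22, 4.24, 4.15 and 4.32 in a3a6KO 1 to 4, against 5.50, 5.01, 5.36 and 5.50 in control 1 to 4. Every a3a6KO array lay below every control. The mean was 4.23 ± 0.07 in a3a6KO and 5.34 ± 0.23 in control (SD, n = 4 each), a difference of -1.11 (SE 0.166, 95% interval -1.48 to -0.74). The limma adjusted p was 0.631, and the exact permutation p was 0.0286, the smallest that 4 against 4 arrays allow. All 8 values lay below the background percentile of their arrays, though above the intron-set medians of 2.85 to 3.07. The difference lay between -1.22 and -1.06 when single arrays were left out, with adjusted p of 0.434 to 0.964.

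The better known exporters did not separate the groups. Abca1, which loads cholesterol onto apolipoprotein A-I, was at 5.31, 4.93, 7.33 and 6.17 in a3a6KO, against 6.24, 5.22, 4.87 and 6.17 in control. The a3a6KO 3 array was the highest of the 8 and the only one above background, and the difference of 0.31 (SE 0.526) was -0.15 without it. Abcg1 was at 3.84, 3.93, 4.00 and 4.39 in a3a6KO, against 4.46, 4.00, 4.57 and 3.92 in control, a difference of -0.20 (SE 0.211).

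**Figure D4:**
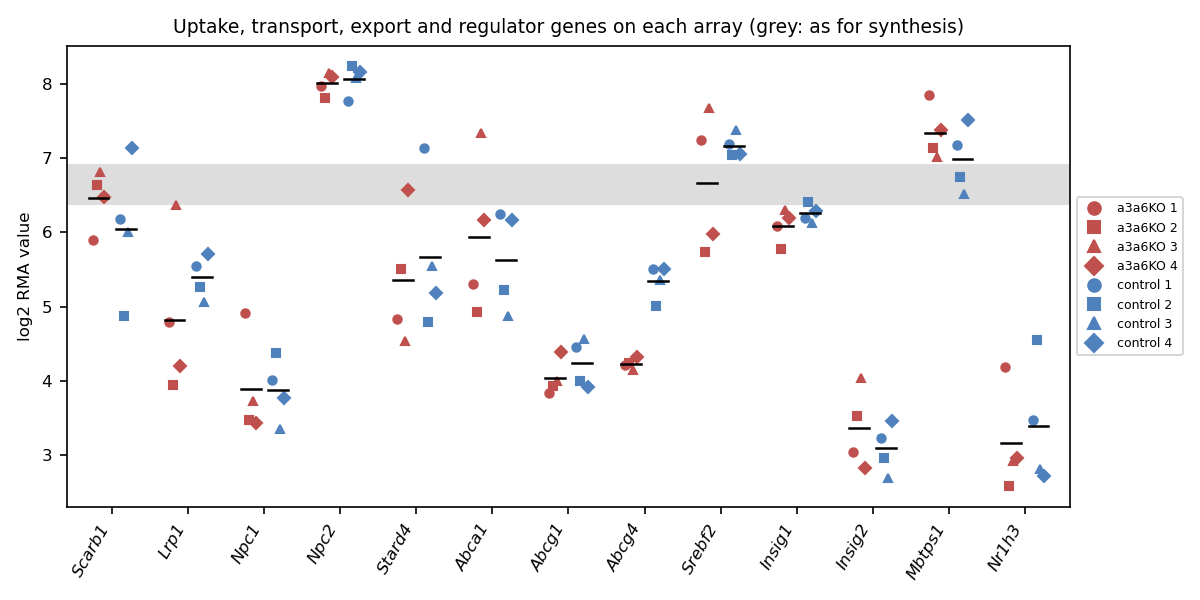
The vertical axis is the log2 RMA value of the 13 measured genes of uptake, transport, export and regulation, drawn as for the synthesis genes with a3a6KO arrays left (red), control arrays right (blue), black bars at the means and the grey background band. Abcg4 is the gene whose a3a6KO values, 4.15 to 4.32, all lie below its control values, 5.01 to 5.50.

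Of the regulators, Srebf2 was uneven within the a3a6KO group. It was at 7.24, 5.74, 7.67 and 5.98 in a3a6KO 1 to 4, against 7.19, 7.04, 7.38 and 7.05 in control 1 to 4. The arrays a3a6KO 2 and 4 lay below background and below all controls, whereas a3a6KO 1 and 3 lay within or above the control values. The difference was -0.51 (SE 0.407, SD 0.94 in a3a6KO and 0.16 in control), which was -0.84 without a3a6KO 3, -0.20 without a3a6KO 2 and -0.24 with the basal covariate. The lowest values of both Itga6 and Srebf2 were in a3a6KO 2, and a3a6KO 4 had a Srebf2 value of 5.98 and an Itga6 value of 7.85. Within the a3a6KO group, the mean synthesis level was highest in a3a6KO 4 and lowest in a3a6KO 1. A relation of Srebf2 to Itga6 or to the enzymes was not tested.

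Mbtps1, the protease that makes the first cut in SREBP, exceeded background on all 8 arrays. It was at 7.84, 7.13, 7.01 and 7.37 in a3a6KO, against 7.18, 6.75, 6.51 and 7.51 in control, a difference of 0.35 (SE 0.268, 95% interval -0.25 to 0.95). Insig1, itself an SREBP target, was at 6.09, 5.78, 6.30 and 6.19 in a3a6KO, against 6.19, 6.41, 6.13 and 6.29 in control. These values spanned less than those of most enzymes, and the difference was -0.16 (SE 0.169). Insig1, too, exceeded background on no array. Insig2 differed by 0.27 (SE 0.287) and Nr1h3, which encodes liver X receptor alpha, by -0.22 (SE 0.461), both below background on every array.

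Other genes of the pathway were read from a list of 49, of which 41 were measured. Means were lower in a3a6KO in 23 and higher in 18, with a median difference of -0.02, and 0 were called by limma. At an unadjusted p under 0.05, 1 was lower, Lbr, and 0 were higher, beside 2.73% and 2.4% of all genes, so 1 of 41 is near the share over all genes. Lbr encodes the lamin B receptor, which is also the enzyme that can stand in for Tm7sf2 in sterol reduction. It was at 5.73, 6.61, 6.67 and 6.46 in a3a6KO, against 7.13, 7.25, 7.63 and 6.42 in control. All a3a6KO arrays lay below control 1 to 3, but control 4 lay below a3a6KO 2, a3a6KO 3 and a3a6KO 4, so the groups overlapped. The difference was -0.74 (SE 0.299, limma adjusted p = 0.944). The next smallest p-values belonged to Scarb2, Scp2, Nfya, Abcg8 and Pdss2, none past the threshold. Their differences were 0.66 for Scarb2, a lysosomal membrane protein, 0.46 for Scp2, a sterol carrier, and -0.39 for Nfya, a subunit of NF-Y. Those of Abcg8, a sterol exporter, and Pdss2, which makes the tail of coenzyme Q, were 0.37 and 0.38. Scp2, Nfya, Abcg8 and Pdss2 exceeded background on no array.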

How the data were processed

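Expression was measured in 8 samples, 4 a3a6KO and 4 control, grouped by the cell subtype label. Per the labels' protocols, each sample's total RNA (500 pg) went through amplification and biotin labelling. The deposited values are log2 signals that, per the submitters' processing notes, came from RMA and Affymetrix Expression Console. RMA equalizes the arrays' distributions, so a change common to nearly all genes cannot be seen. GEO's platform annotation gave 1 symbol to 19572 of 28846 probe sets, and the brightest set on average was kept per gene. The comparison used limma 3.58.1 in R 4.3.3 (group as the only term, two-sided, no pseudocount), with Benjamini-Hochberg adjustment over 19505 genes and a threshold of 0.05, and exact permutation tests over 70 assignments for single genes. The fit was tested on simulated data. Arrays have no read depth, and their number limits precision (median standard error 0.234). No 2 arrays held identical values. The genes and the list of other pathway genes were chosen with earlier results of these data known. All listed genes measured are named, and of the other pathway genes the 6 of smallest p. Alternatives left out arrays, blocked on replicate number, weighted arrays, removed dim genes, centred arrays, averaged probe sets, let the variance follow intensity or added the basal marker level. Promoters came from RefSeq's table for GRCm38.p6, which matched 26 of the 34 genes. No source used here names the build of the probe sets.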

Additional observations from a re-analysis of the deposited data

Results flagged for a closer look

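Within groups of 4 arrays, a value was singled out where its gap to the nearest other value passed Dixon's 95% critical value as a share of the group's range. Of 60 groups examined, 3 held such a value, and chance gives about 1 in 20. Mvd was at 6.58 in a3a6KO 3, against 5.41 to 5.48 in the other a3a6KO arrays. Cyp51 was at 4.11 in control 4, against 5.36 to 5.54 in the other controls. Ebp was at 7.22 in control 3, against 4.48 to 4.87 in the other controls.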

How the results depend on the processing

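Under every alternative run, limma called 0 of the genes tested, while 909 to 1135 had an unadjusted p under 0.05 (165 of the 2774 genes that exceeded background on at least 4 arrays). Same-numbered samples of the groups did not deviate together (r of -0.061 to 0.039, 1 of 4 closest to its own number), so the replicate numbers were not taken as pairs. The number of genes at an unadjusted p under 0.05, 4 lower and 1 higher of 30, was 1 lower with the replicate block, 1 to 4 lower and 0 to 1 higher when single arrays were left out, and 0 higher with the intensity trend or the basal covariate. It was 2 lower and 0 higher without control 1 and 2, and 5 lower and 1 higher without a3a6KO 3 and 4. Both alternatives were added after the data were seen. The genes counted were not the same under each alternative. Only 5 of the 30 genes exceeded background on at least 4 arrays, and among these the counts were 0 and 0, the median difference -0.0525, and that of the synthesis genes 0.10. The median of the 30 genes was -0.0326 with the basal covariate and -0.25 to -0.0317 when single arrays were left out. Of the 30, 13 showed no change of sign in any alternative that included them, Hmgcs1, Lss, Msmo1, Hsd17b7 and Abcg4 among them. These 5 were removed with the dim genes, so that alternative did not include them. They had been singled out by their unadjusted p in the same data, so a kept sign adds no support. Signs turned with the basal covariate for Mvk (-0.25), Nsdhl (0.12), Lrp1 (0.0534) and Npc2 (0.0839), and with array weights for Npc1 (-0.00576). Without control 1 and 2 they turned for Pmvk (-0.0925), Scarb1 (-0.12) and Nr1h3 (0.395), and without a3a6KO 3 and 4 for Mvk (-0.065), Pmvk (-0.255), Mvd (-0.2025), Fdps (0.12), Sqle (0.0375) and Abca1 (-0.505), while Nr1h3 was at 0. Leaving out single arrays gave -0.17 to 0.28 for Mvk, -0.14 to 0.22 for Pmvk, -0.21 to 0.20 for Mvd, -0.59 to 0.15 for Idi1, -0.53 to 0.0842 for Fdps, -0.57 to 0.12 for Ggps1, -0.19 to 0.40 for Fdft1, -0.28 to 0.13 for Sqle, -0.62 to 0.31 for Ebp, -0.34 to 0.17 for Npc1, -0.15 to 0.0117 for Npc2, -0.70 to 0.18 for Stard4, -0.15 to 0.65 for Abca1 and -0.57 to 0.16 for Nr1h3. The causes of these turns were not tested. Of the 30 genes, 18 exceeded background on no array.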
